A study of Mus musculus with 28 samples.

Results

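The genes described are 45 ligands and receptors of the FGF, EGF, PDGF and angiogenic growth factor families, out of 45706 genes in the expression tables. They were chosen by name, as all table entries whose Ensembl identifier maps to one of the 45 listed symbols. The rule uses no measured value, although the list was drawn up with earlier results of these data known. The libraries were made from mIMCD-3 cells, a mouse kidney line with the character of inner medullary collecting duct epithelium. RNA was sequenced in 28 libraries of unedited cells, 4 each of polyclonal WT cells, the clone WT5 and subclones 1 to 5. WT5 was grown from 1 cell sorted out of the polyclonal population, and each subclone from 1 cell sorted out of WT5, so that every one of the 6 lines is a single clone. All groups are wild-type for the genes edited elsewhere in the study, received no treatment, and were kept in 10% serum at 37 °C and 10% CO2 until 4 days after full confluency. The comparison of WT5 with polyclonal WT asks how far a clone differs from its parent population, and the subclones ask how much difference arises again within a clone.

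Growth factors of these families are secreted or membrane-bound proteins that bind receptor tyrosine kinases or, for apelin, a G protein-coupled receptor. Collecting duct epithelium is known to express EGF receptors, the FGF receptor FGFR2 and the HGF receptor MET, and to release factors such as VEGF-A and PDGF that act on neighbouring endothelium, mural cells and interstitial cells. Branching of the collecting duct during kidney development depends on FGF signals received through FGFR2.

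Values are TPM, a transcript level scaled to transcript length and to the same total in every library, so levels of different genes can be compared. The depth of the libraries is not known from TPM, and a low value is less certain than its decimals show. Polyclonal cells were sequenced as short single-end reads and WT5 as longer paired-end reads at another time, so the line and the sequencing batch cannot be told apart. Subclone values stand in a separate table, so a difference from WT5 shared by all 5 subclones cannot be told apart from a difference between tables. Predicted genes and mitochondrial transcripts took 21.6 to 27.3% of TPM in polyclonal WT, 8.55 to 9.70% in WT5 and 12.2 to 18.5% in the subclones. Epithelial markers such as Cdh1, Epcam, Krt8, Pax2 and Pax8 were at 1 TPM or more in every group, as were 12 of the 16 such markers in polyclonal WT and 9 in each other group. Avpr2, the vasopressin receptor of collecting duct cells, was at 9.70 to 10.97 TPM in polyclonal WT and at most 0.4 TPM elsewhere, Gata3 at 2.63 to 5.06 TPM and at most 0.23 TPM, and Scnn1a at 1.06 to 1.13 TPM and at most 0.91 TPM, while Aqp2, the water channel of principal cells, was listed at 0 throughout. Of the 10 endothelial markers none reached 1 TPM in any group, their sum lay between 0.18 and 0.72 TPM, and Emcn, Erg and Robo4 were listed at 0 throughout. The 10 fibroblast and mural cell markers summed to between 0.37 and 4.5 TPM, and of the 8 leukocyte markers, whose sum was 12.6 to 14.3 TPM in polyclonal WT and 28.4 to 55.6 TPM in the other groups, Adgre1, Cd3e and Lyz2 were among those at 0. Csf1r made up most of that sum, at 10.1 to 11.1 TPM in polyclonal WT and 26.3 to 54.1 TPM elsewhere, with Cd68 at 1.45 to 4.52 TPM over all libraries, and their part in the results was not tested. In bulk RNA, fewer cells that express a gene and less RNA per cell cannot be told apart.

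Of the 45 genes, 26 had a mean of at least 1 TPM in at least 1 group and 16 in every group. Receptors for EGF, HGF and FGF ligands were among the highest. Fgfr2, which receives FGF signals in epithelium, was at 60.3 to 70.1 TPM in polyclonal WT and 66.8 to 73.1 TPM in WT5. Egfr, the receptor for EGF, TGF-alpha and HB-EGF, lay at 36.9 ± 2.73 TPM in the polyclonal libraries and 103 ± 8.62 TPM in WT5 (SD, n = 4). Its partner Erbb2 was at 48.5 ± 4.61 and 68.1 ± 2.96 TPM, and Erbb3 at 38.2 ± 3.41 and 47.1 ± 2.50 TPM (SD, n = 4). Met was at 29.8 ± 2.36 and 92.6 ± 3.90 TPM (SD, n = 4), whereas its ligand Hgf was listed at 0 in all 28 libraries.

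The most abundant ligands were Hbegf, Tgfa, Pdgfa, Pdgfb, Vegfa and Vegfb, the first pair of which bind EGFR. The highest group means of Hbegf, Pdgfb and Vegfa were in WT5, at 184, 98.6 and 68.5 TPM. That of Vegfb was 95.7 TPM in polyclonal WT, that of Pdgfa 70.4 TPM in subclone 2 and that of Tgfa 45.9 TPM in subclone 5. The receptors that PDGF and VEGF-A mainly act on were near or at 0: Pdgfra, Pdgfrb, Kdr and Kit, the receptor for KIT ligand, never exceeded 0.2 TPM in any library. The same held for Fgfr4, Tek, Aplnr, Igf1, Fgf10 and Vegfc, and Ereg and Tie1 were at 0 in all 28 libraries. In all, 13 of the 45 stayed at or under 0.2 TPM everywhere and 19 had no group mean of 1 TPM.

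Because log2 was taken without a pseudocount, 29 of the 45 genes, those above 0 in all 8 libraries, could be compared between WT5 and polyclonal WT. Log2(TPM) was z-score transformed within each library, and a gene was called at an adjusted p-value below 0.01 (limma, Benjamini-Hochberg over 13723 genes) with a z-score difference above 1. The mean SD of log2(TPM) within a library was 3.10, and since z-scores are also centred, the fold at the threshold differs between higher and lower genes. By this rule 7 of the 29 differed, or 24.1%, beside 5.43% of all genes tested. Angpt1, Apln, Btc and Fgf9 were lower in WT5, as were 3.12% of all genes, and Pdgfc, Flt1 and Flt4 were higher, as were 2.31%. With genes above 0 in any library kept and a pseudocount of 0.1 added, 2 of 39 members were called, or 5.13%. These were Angpt1 and Pdgfc. The share by this rule thus depends on the filter, and that of all genes without the filter is not given here. By a smaller threshold of 2-fold with the same adjusted p-value, 20 of the 29 differed, 16 higher and 4 lower, beside 25.3% of all genes (16.4% higher and 8.85% lower). Over the 29, the median log2 difference was 1.35, beside 0.24 over all genes tested, where the z-scores took this shift to 0.0099. After TPM had been rescaled without predicted genes and mitochondrial transcripts, 15 were higher and 4 lower by 2-fold, beside 20% of all genes, and the median over all genes was at 0.026.

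**Figure D1:**
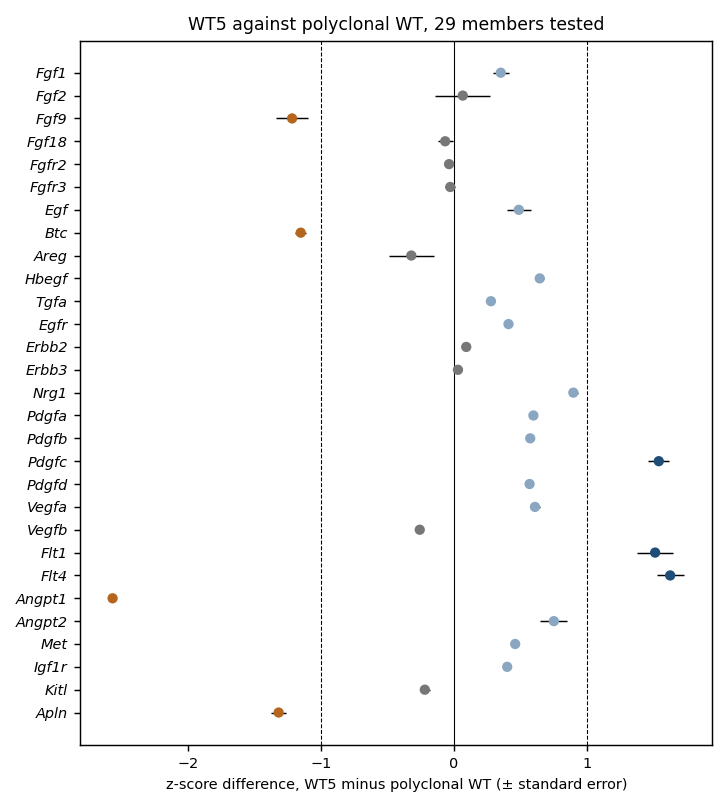
Difference in z-score of log2(TPM), WT5 minus polyclonal WT, for the 29 genes tested, as points with standard errors (n = 4 libraries a group). Dashed lines mark a difference of 1 in size. Dark blue points are genes higher and brown points genes lower by that rule, pale blue points are higher by at least 2-fold only, and grey points pass neither rule. Angpt1 lies farthest out at -2.57, and Flt4, Pdgfc and Flt1 lie at 1.63, 1.54 and 1.52.

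Ligands that were lower in WT5 came from several families. Angpt1 (chromosome 15, 42424723 to 42676977, minus strand, GRCm38) encodes angiopoietin 1, a ligand of the endothelial receptor TIE2. Its levels were 9.44, 8.57, 8.31 and 8.78 TPM in the polyclonal libraries and 0.04, 0.05, 0.04 and 0.04 TPM in the WT5 libraries. The groups stood far apart, and the z-score was lower by 2.57 (standard error 0.026, limma adjusted p = 8.52e-10), a level 207-fold lower on the log2 mean, although WT5 values of 0.04 are close to the last decimal deposited. Of its exonic bases 14.2% overlap Gm17473 on the other strand, and the strand of counting is not stated, so reads from both cannot be told apart.

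Apln (chromosome X, 48025146 to 48034853, minus strand) encodes apelin, a peptide that acts on vessels and on water balance. It was at 2.17, 2.13, 1.88 and 2.36 TPM in polyclonal WT and at 0.12, 0.17, 0.21 and 0.12 TPM in WT5. No WT5 library came near the polyclonal ones, with a level 14.1-fold lower (z-score difference -1.32, standard error 0.058, limma adjusted p = 5.76e-07). Its receptor gene Aplnr stayed at or under 0.08 TPM in all libraries.

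Betacellulin, an EGFR and ERBB4 ligand encoded by Btc (chromosome 5, 91357261 to 91402994, minus strand), followed the same direction. Polyclonal libraries had 3.01, 2.42, 3.00 and 2.35 TPM, and WT5 libraries 0.24, 0.27, 0.34 and 0.24 TPM. All WT5 values lay below all polyclonal ones, and the level was 9.93-fold lower (z-score difference -1.15, standard error 0.041, limma adjusted p = 1.97e-07). Fgf9 (chromosome 14, 58070547 to 58112720, plus strand), an FGF that signals between epithelium and mesenchyme, was at 1.59, 0.87, 1.23 and 1.72 TPM in polyclonal WT. In WT5 it was at 0.16, 0.06, 0.11 and 0.17 TPM. The spread within each line was wider than for Btc, the lines did not overlap, and the level was 11.3-fold lower in WT5 (z-score difference -1.22, standard error 0.122, limma adjusted p = 4.81e-05).

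Higher in WT5 was Pdgfc (chromosome 3, 81036416 to 81214040, plus strand), which encodes a PDGF chain that acts mainly on PDGF receptor alpha. It was at 0.17, 0.07, 0.15 and 0.12 TPM in polyclonal WT and at 4.54, 3.78, 4.00 and 3.71 TPM in WT5. The lines were apart in every library, by 33.0-fold (z-score difference 1.54, standard error 0.078, limma adjusted p = 1.19e-06). The other PDGF genes were higher too, by less: Pdgfa 4.19-fold, Pdgfb 3.97-fold and Pdgfd 3.98-fold. For Pdgfa 26.1% of the exonic bases overlap 6330403L08Rik on the other strand.

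The VEGF receptor genes Flt1 (chromosome 5, 147561604 to 147726011, minus strand) and Flt4 (chromosome 11, 49609263 to 49652739, plus strand) are known mainly from blood and lymphatic endothelium. Flt1 was at 0.06, 0.02, 0.05 and 0.10 TPM in the polyclonal libraries and 1.77, 1.33, 1.7 and 1.47 TPM in WT5. Flt4 was at 0.03, 0.02, 0.02 and 0.06 TPM in the polyclonal libraries and 1.11, 1.17, 1.22 and 1.19 TPM in WT5. Both were above all polyclonal values in every WT5 library, Flt1 by 31.5-fold (z-score difference 1.52, standard error 0.134, limma adjusted p = 2.39e-05) and Flt4 by 40.2-fold (1.63, standard error 0.102, limma adjusted p = 3.47e-06). The polyclonal values of both genes are close to the last decimal deposited, so the folds are uncertain. With the filter kept, a pseudocount of 0.1 still gave 3 members called higher. Without the filter, where the z-scores also take in genes at 0 in some libraries, neither gene was called at that pseudocount. With a pseudocount of 1 no member was called higher. Kdr, the main signalling receptor for VEGF-A, was at 0 in all 8 libraries. Endothelial markers summed to 0.24 to 0.52 TPM in polyclonal WT and 0.6 to 0.72 TPM in WT5, with Cdh5, Emcn, Erg and Robo4 at 0 in both.

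**Figure D2:**
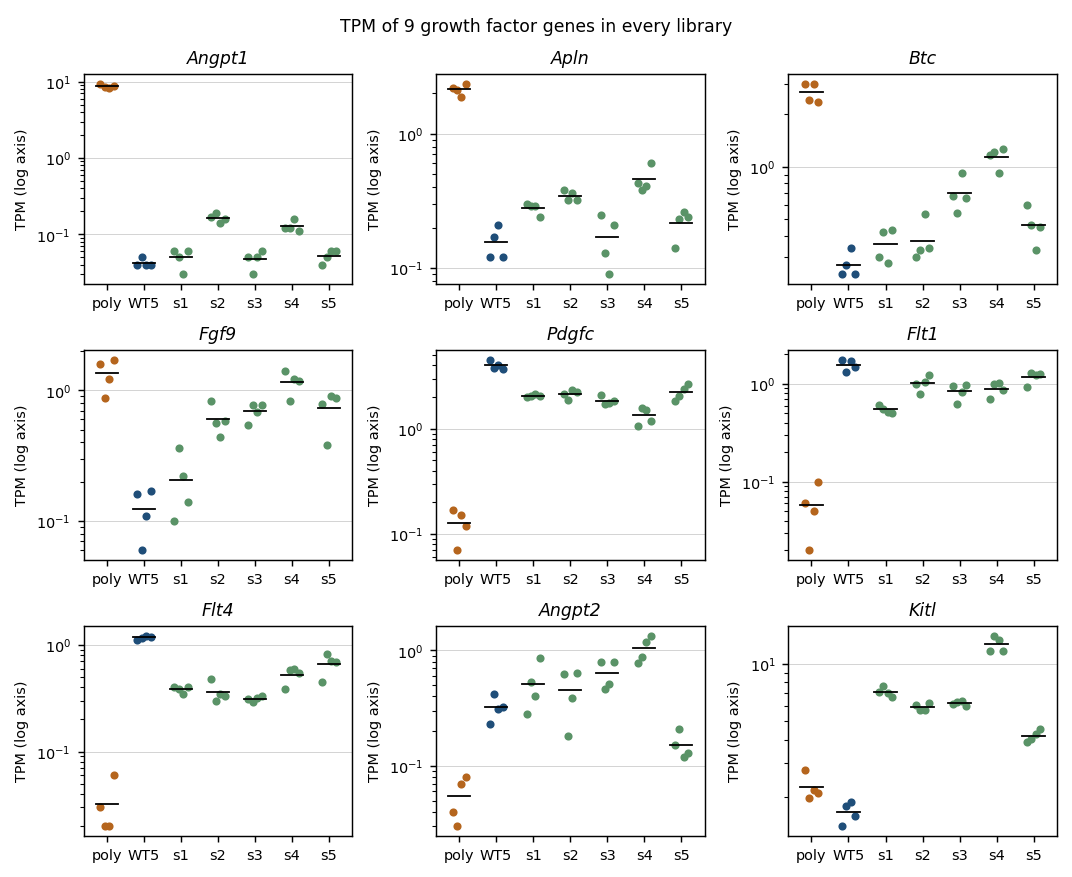
TPM on a log axis in each of the 28 libraries for 9 genes, with 1 point per library and a black line at the group mean (poly is polyclonal WT, s1 to s5 are subclones 1 to 5, 4 libraries each). Angpt1, Apln, Btc and Fgf9 are highest in polyclonal WT, Pdgfc, Flt1 and Flt4 in WT5, and Kitl in subclone 4 at 11.7 to 14.1 TPM.

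Flt1 and Flt4 were higher and Apln and Fgf9 lower in WT5, while Kitl passed neither rule there and differed among the subclones, as described below. The windows around the transcription starts of these 5 genes show which short promoter elements are present. They run from 250 bases before to 50 bases after the RefSeq start (GRCm38.p6), are written along the transcribed strand, and carry in capitals each TATA box (TATAAA), GC box (GGGCGG), AP-1 site (TGACTCA) and hypoxia response core (ACGTG), searched on both strands. They lie at chr5:147725962-147726261 (minus strand) for Flt1, chr11:49609429-49609728 (plus) for Flt4, chr10:100015571-100015870 (plus) for Kitl, chrX:48034804-48035103 (minus) for Apln and chr14:58072436-58072735 (plus) for Fgf9.
Flt1: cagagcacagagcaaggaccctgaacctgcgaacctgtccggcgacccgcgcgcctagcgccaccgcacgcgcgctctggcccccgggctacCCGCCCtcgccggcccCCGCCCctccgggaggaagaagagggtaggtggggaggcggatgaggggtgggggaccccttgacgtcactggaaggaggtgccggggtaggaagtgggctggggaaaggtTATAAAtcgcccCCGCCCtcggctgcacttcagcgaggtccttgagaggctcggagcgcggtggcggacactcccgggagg
Flt4: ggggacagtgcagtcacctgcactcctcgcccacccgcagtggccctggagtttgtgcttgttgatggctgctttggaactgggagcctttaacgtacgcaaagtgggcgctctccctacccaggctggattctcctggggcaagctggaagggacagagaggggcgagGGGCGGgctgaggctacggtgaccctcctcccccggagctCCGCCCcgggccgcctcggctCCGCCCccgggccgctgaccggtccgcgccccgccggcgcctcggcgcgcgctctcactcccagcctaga
Kitl: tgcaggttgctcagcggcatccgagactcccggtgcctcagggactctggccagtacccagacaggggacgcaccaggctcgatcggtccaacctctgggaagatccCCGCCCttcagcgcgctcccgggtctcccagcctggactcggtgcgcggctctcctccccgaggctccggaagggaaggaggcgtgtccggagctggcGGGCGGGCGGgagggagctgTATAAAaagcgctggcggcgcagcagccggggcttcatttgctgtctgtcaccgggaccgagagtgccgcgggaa
Apln: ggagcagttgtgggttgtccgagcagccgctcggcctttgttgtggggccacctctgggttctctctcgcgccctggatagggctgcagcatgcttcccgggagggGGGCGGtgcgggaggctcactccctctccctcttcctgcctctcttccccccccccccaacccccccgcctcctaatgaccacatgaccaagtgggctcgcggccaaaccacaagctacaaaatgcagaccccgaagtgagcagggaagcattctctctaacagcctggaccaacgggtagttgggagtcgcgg
Fgf9: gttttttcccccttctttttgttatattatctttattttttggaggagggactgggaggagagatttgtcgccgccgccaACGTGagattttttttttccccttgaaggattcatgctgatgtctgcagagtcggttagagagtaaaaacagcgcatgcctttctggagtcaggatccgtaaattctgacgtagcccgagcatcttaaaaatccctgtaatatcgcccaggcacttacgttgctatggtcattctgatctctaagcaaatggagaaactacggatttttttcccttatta
Flt1 and Kitl each hold a TATA box, starting at positions -31 and -25 from the start, and 3 GC boxes, of which a pair overlaps in Kitl. Flt4 holds 3 GC boxes and Apln 1, and Fgf9 holds a single hypoxia response core. The windows of Pdgfc and Btc hold none of the 4 motifs. Among 32851 promoter windows a TATA box is found in 13.6%, a GC box in 35.7%, an AP-1 site in 5.2% and a hypoxia response core in 19.6%. The ratio of observed to expected CpG was 0.78 for Flt1, 0.702 for Flt4 and 0.88 for Fgf9, but 0.353 for Pdgfc, 0.187 for Btc and 0.493 for Apln, so genes that rose and genes that fell each included both kinds. Of the 34 members with a window, 21 had at least 1 window with a ratio of at least 0.6. Among all windows 35.8% had such a ratio, a share of windows and not of genes, and some members have more than 1 window.

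A further 13 members were higher in WT5 past 2-fold. Among EGFR ligands, Hbegf was at 32.2, 38.2, 44.5 and 45.9 TPM in the polyclonal libraries and 185, 188, 188 and 174 TPM in WT5. All WT5 libraries exceeded all polyclonal ones, by 4.61-fold (limma adjusted p = 1.68e-06). Tgfa was 2.11-fold higher (limma adjusted p = 5.21e-05), but was under 2-fold with rescaled TPM and without WT5 replicate 3, each of which left 15 members higher past 2-fold. Egf, which kidney tubules are known to make, was at 0.23, 0.23, 0.42 and 0.23 TPM against 0.83, 0.86, 0.71 and 1.41 TPM, 3.44-fold higher in WT5 (limma adjusted p = 0.00135). Thus Btc alone among the tested EGFR ligands was lower past 2-fold, while for Areg, at 0.08 to 0.30 against 0.04 to 0.13 TPM, the groups overlapped (limma adjusted p = 0.12). For Egf 9.82% of the exonic bases overlap 6330410L21Rik and Gm42697 on the other strand.

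Nrg1, the neuregulin that binds ERBB3 and ERBB4, was at 0.83, 0.91, 0.78 and 0.71 TPM in the polyclonal libraries and 7.17, 6.42, 6.71 and 6.10 TPM in WT5. With 8.19-fold (limma adjusted p = 2.44e-07) it lay just under the z-score threshold at 0.90. Vegfa, the main driver of vessel growth, was at 14.3, 16.3, 14.5 and 18.8 TPM and at 72.9, 65.1, 73.3 and 62.5 TPM, or 4.30-fold higher in WT5 (limma adjusted p = 2.45e-06). Its relative Vegfb went the other way, 1.51-fold lower in WT5, a difference under the thresholds. Angpt2, an angiopoietin that can oppose angiopoietin 1, was 6.15-fold higher (limma adjusted p = 0.000254) at 0.23 to 0.42 TPM against 0.03 to 0.08 TPM. Fgf1 was 2.56-fold higher (limma adjusted p = 0.00107), from 0.46 to 0.96 TPM up to 1.64 to 1.88 TPM.

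Among the receptors Egfr was 2.79-fold, Met 3.11-fold and Igf1r, the IGF-1 receptor, 2.77-fold higher in WT5, with limma adjusted p of 1.57e-06, 4.60e-07 and 9.65e-07. In each of the 3 genes all WT5 libraries lay above all polyclonal ones. Erbb2, Erbb3, Fgfr2 and Fgfr3 were between 1.07-fold and 1.41-fold of polyclonal WT and passed neither rule. Fgfr1 was listed at 0 in the 4 polyclonal libraries and at 0.38, 0.98, 0.87 and 0.36 TPM in WT5. It was therefore tested only with a pseudocount of 0.1, where it differed (limma adjusted p = 3.46e-05) with a z-score difference of 0.83. Fgf10, at 0.04 to 0.13 TPM in polyclonal WT, was at 0 in the other 24 libraries.

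**Figure D3:**
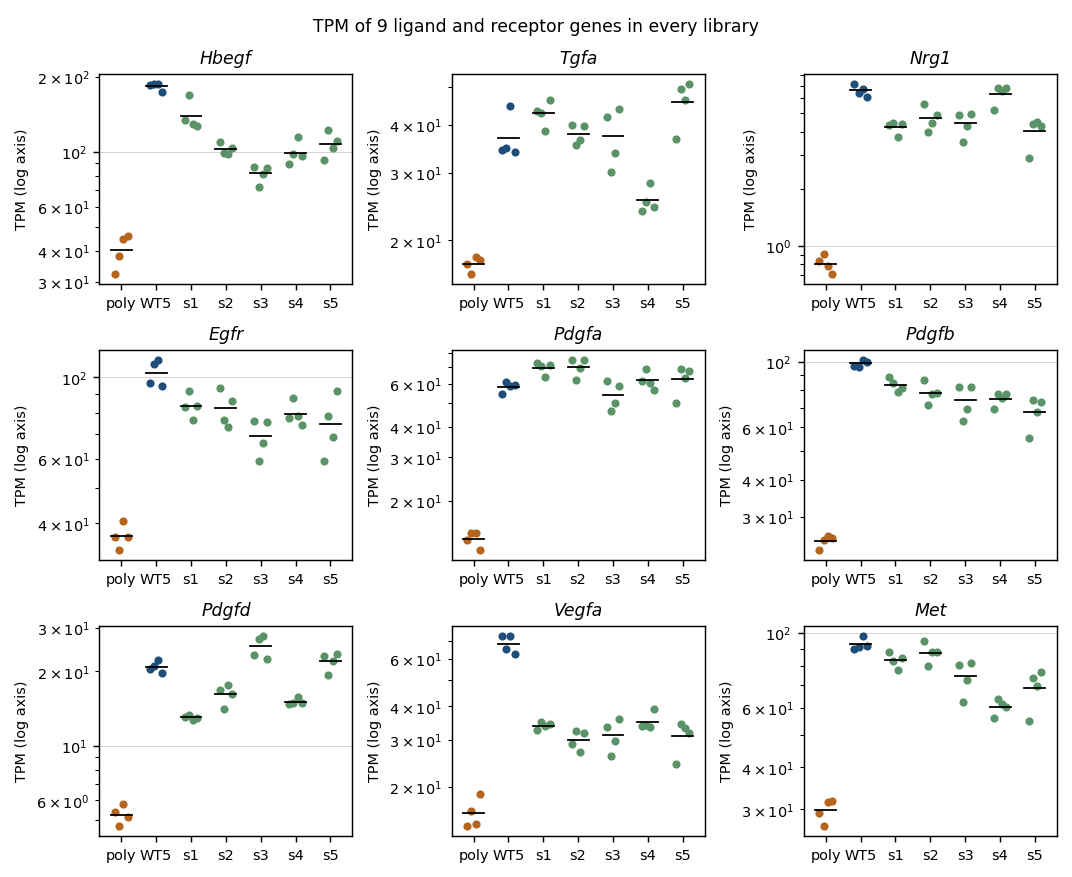
TPM on a log axis in each library for 9 ligand and receptor genes at higher levels, drawn as in the plot of the called genes. In all 9 panels the 4 polyclonal libraries lie below the 4 WT5 libraries, and for Vegfa the 20 subclone libraries, at 24.3 to 39.1 TPM, lie between them.

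The 20 subclone libraries stand in 1 table, so that differences among subclones do not involve a difference between tables. Their labels give neither read type nor sequencing run, so a difference in these between subclones cannot be told apart from the subclone. Over 14031 genes, 30 of the 45 were tested by limma's moderated F-test, and a gene was called at an adjusted p-value below 0.01 with at least 2-fold between the highest and the lowest subclone mean. By this rule 8 of the 30 differed, or 26.7%, beside 5.4% of all genes: Kitl, Fgf9, Btc, Angpt1, Angpt2, Apln, Flt1 and Flt4. Subclone 4 had the highest mean for 5 of them, and 4 genes, Kitl, Btc, Angpt2 and Fgf9, were called higher in subclone 4 against the mean of the other 4, beside 1.09% of all genes. In at least 1 such contrast 5 of the 30 were called, beside 3.63% of all genes. With only genes at a mean of at least 1 TPM over these 20 libraries kept, 1 member was called among subclones and 1 in such a contrast. The shares of all genes with that filter are not given here.

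Kitl (chromosome 10, 100015630 to 100100416, plus strand), the KIT ligand or stem cell factor, was the member with the smallest p-value. In subclone 4 it was at 11.7, 14.1, 13.4 and 11.8 TPM, and in subclone 5 at 3.87, 4.02, 4.26 and 4.55 TPM. Subclones 1, 2 and 3 lay between these at 5.71 to 7.64 TPM, and no library of subclone 4 or 5 reached that range. The range of means was 3.05-fold (limma F-test, adjusted p = 2.62e-10), and subclone 4 was 2.21-fold above the other 4 (limma adjusted p = 1.32e-10).

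Fgf9 differed at both ends. Subclone 1 had 0.10, 0.36, 0.22 and 0.14 TPM and subclone 4 had 1.41, 0.83, 1.23 and 1.19 TPM. Subclone 1 lay below all other subclone libraries, and subclone 4 reached into the range of subclones 2 and 5, whose highest values were 0.83 and 0.90 TPM. The means spanned 6.27-fold (limma F-test, adjusted p = 0.000149), with subclone 1 lower by 4.12-fold (limma adjusted p = 9.36e-05) and subclone 4 higher by 2.41-fold (limma adjusted p = 0.00234). Without replicate 1, 3 or 4 of subclone 4 the latter call was lost, at adjusted p of 0.0149, 0.0117 and 0.0109 by limma.

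Btc was at 1.16, 1.21, 0.92 and 1.27 TPM in subclone 4, and at 0.30, 0.42, 0.28 and 0.43 TPM in subclone 1. Only replicate 3 of subclone 3, at 0.92 TPM, reached subclone 4, which was 2.54-fold above the other 4 (limma adjusted p = 1.37e-05). Angpt2 (chromosome 8, 18690263 to 18741562, minus strand) was at 0.77, 0.88, 1.17 and 1.34 TPM in subclone 4, and at 0.15, 0.21, 0.12 and 0.13 TPM in subclone 5. Subclone 5 was lower than the other 4 by 3.97-fold (limma adjusted p = 0.000145) and subclone 4 higher by 2.78-fold (limma adjusted p = 0.00159), although subclones 1 and 3 overlapped subclone 4 and subclone 2 overlapped subclone 5. Without replicate 4 of subclone 4 its call was lost (limma adjusted p = 0.0119).

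Angpt1 was highest in subclone 2, at 0.17, 0.19, 0.14 and 0.16 TPM, then in subclone 4 at 0.11 to 0.16 TPM, while subclones 1, 3 and 5 stayed at 0.03 to 0.06 TPM. Subclone 2 was 2.66-fold above the other 4 (limma adjusted p = 5.88e-05), at a level that in each library was far below the 8.31 to 9.44 TPM of polyclonal WT. Apln ranged from 0.09 to 0.25 TPM in subclone 3 to 0.38 to 0.61 TPM in subclone 4 (limma F-test, adjusted p = 0.00159). These low levels matter for the calls, since with a pseudocount of 1 only Kitl of the 8 genes kept a 2-fold range.

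The VEGF receptors varied by about the threshold. Flt1 was lowest in subclone 1, at 0.61, 0.56, 0.52 and 0.50 TPM, and highest in subclone 5, at 0.93, 1.3, 1.23 and 1.25 TPM, a 2.14-fold range (limma F-test, adjusted p = 0.000561). Flt4 was lowest in subclone 3, at 0.31, 0.29, 0.32 and 0.33 TPM, and highest in subclone 5, at 0.45, 0.82, 0.71 and 0.69 TPM, a 2.09-fold range (limma F-test, adjusted p = 0.000619). For both genes the libraries of the lowest and the highest subclone did not overlap. Without replicate 2 of subclone 5 the range of Flt4 was 0.95 on the log2 scale, under the threshold.

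Several abundant members differed among subclones by less than 2-fold. Pdgfd was at 12.7 to 13.3 TPM in subclone 1 and 22.55 to 27.96 TPM in subclone 3, a range of 1.93-fold (limma F-test, adjusted p = 2.83e-07). Tgfa (1.80-fold, adjusted p = 0.000202), Hbegf (1.7-fold, adjusted p = 0.00035), Pdgfc (1.67-fold, adjusted p = 0.00101) and Met (1.45-fold, adjusted p = 0.00258) also passed the p-value of the limma F-test alone. So did Fgf1, highest in subclone 1 and lowest in subclone 4 (1.67-fold, limma F-test, adjusted p = 0.00624). Vegfa spanned 1.17-fold, Vegfb 1.18-fold, Egfr 1.21-fold and Fgfr2 1.22-fold, with adjusted p of 0.361, 0.144, 0.312 and 0.321 by the limma F-test. Erbb4 spanned 7.42-fold at 0.02 to 0.39 TPM without passing (limma F-test, adjusted p = 0.0271). Without the filter and with a pseudocount of 0.1, 6 members were called among subclones, beside 3.74% of all genes. Flt1, Flt4 and Angpt1 were then not called, with log2 ranges of 0.97, 0.87 and 0.85, under the threshold. Areg, not tested otherwise, was called there (limma F-test, adjusted p = 0.0004), being at 0 in subclone 2 and at 0.08 to 0.17 TPM in subclone 4.

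**Figure D4:**
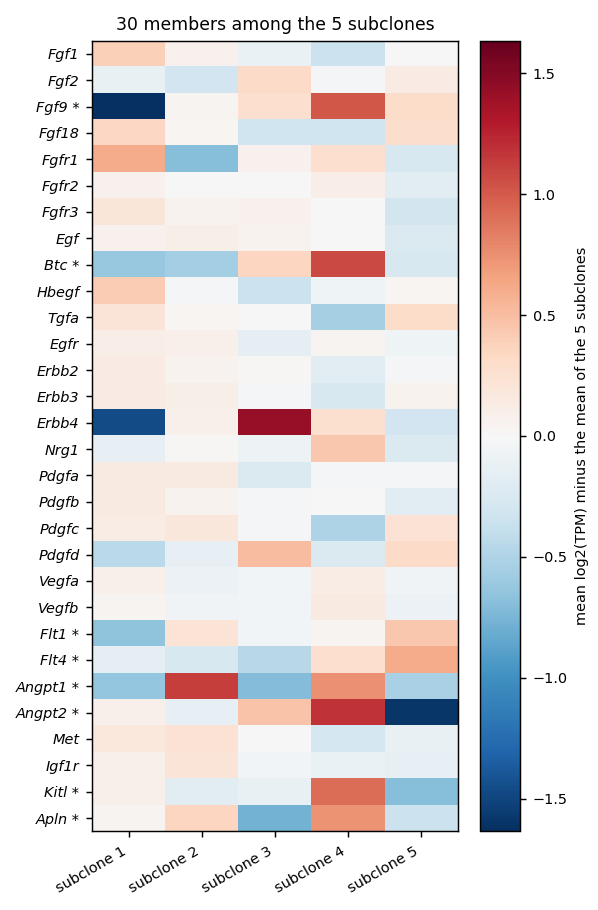
Mean log2(TPM) of each subclone minus the mean of the 5 subclones for the 30 genes tested (red above, blue below, 4 libraries a subclone). An asterisk marks the 8 genes called among subclones. Kitl, Fgf9, Btc and Angpt2 are reddest in subclone 4, Fgf9 is bluest in subclone 1 and Angpt2 in subclone 5. Erbb4, at 0.39 TPM or less, is strongly coloured but did not pass the test.

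Each subclone was also compared with WT5, the clone it came from, and these 5 comparisons share the same 4 WT5 libraries. By the z-score rule Fgf9 in subclone 4 was the single call among the 30 genes tested, beside 0.613% of all genes called in at least 1 subclone. It was 9.88-fold above WT5 (z-score difference 1.04, standard error 0.12, limma adjusted p = 0.000312), and the difference was 0.92 without WT5 replicate 2 and 0.997 without subclone 4 replicate 1, both under the threshold. By 2-fold, 12 of the 30 differed in at least 1 subclone, beside 8.9% of all genes. The counts were 5, 6, 8, 9 and 5 in subclones 1 to 5, beside 3.13, 2.71, 3.84, 4.89 and 3.48% of all genes. The median log2 difference of the 30 lay between -0.25 in subclone 4 and 0.0066 in subclone 1, while that of all genes lay between -0.098 and -0.037.

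Kitl was the only member past 2-fold in the same direction in all 5 subclones, which 0.491% of all genes were. WT5 had 1.40, 1.79, 1.88 and 1.59 TPM and polyclonal WT 2.77, 1.96, 2.16 and 2.09 TPM, while the lowest of the 20 subclone libraries had 3.87 TPM. The excess over WT5 ran from 2.52-fold in subclone 5 (limma adjusted p = 8.64e-05) to 7.67-fold in subclone 4 (limma adjusted p = 3.07e-06). What is shared by all 5 subclones cannot be told apart from the tables, whereas the differences among subclones stand within 1 table.

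Fgf9 was past 2-fold above WT5 in subclones 2 to 5, by 5.07-fold, 5.90-fold, 9.88-fold and 6.03-fold, while in subclone 1 its 0.10 to 0.36 TPM overlapped the 0.06 to 0.17 TPM of WT5. Fgf2 was past 2-fold higher in subclones 1, 3, 4 and 5, at 0.15 to 0.46 TPM against 0.08 to 0.12 TPM in WT5. Subclone 2 lay above WT5 in every library too, so the shared part cannot be told apart from a difference between tables. Of its exonic bases 9.44% lie opposite another gene, and 3.48% of its 50-base stretches also occur in Gm43439. Btc was higher in subclones 3 (2.55-fold, limma adjusted p = 0.00215) and 4 (4.2-fold, limma adjusted p = 2.88e-05). Angpt1 and Apln were higher in subclones 2 and 4, by 3.88-fold and 2.98-fold for Angpt1 and by 2.28-fold and 2.99-fold for Apln. Angpt2 was higher in subclone 4 by 3.24-fold (limma adjusted p = 0.000776) and lower in subclone 5 by 2.10-fold (limma adjusted p = 0.00447).

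Past 2-fold lower than in WT5 were Vegfa and Flt4, each in 4 subclones. Vegfa was between 24.3 and 39.1 TPM in the 20 subclone libraries, all below the lowest WT5 library at 62.5 TPM and above the highest polyclonal one at 18.8 TPM. In subclones 1, 2, 3 and 5 it was 2.02-fold, 2.29-fold, 2.20-fold and 2.23-fold lower, and in subclone 4 the log2 difference of -0.97 was just under the threshold. Flt4 was lower by 3.05-fold, 3.26-fold, 3.75-fold and 2.26-fold in subclones 1 to 4, and by a log2 difference of -0.85 in subclone 5. Pdgfc was past 2-fold lower in subclones 3 (2.17-fold) and 4 (3.03-fold), Hbegf in subclone 3 (2.25-fold) and Flt1 in subclone 1 (2.85-fold). In each of these genes, as in Vegfa and Flt4, all 20 subclone libraries lay below the lowest WT5 library. Such a shift, shared by all subclones, cannot be told apart from a difference between tables. For Pdgfc, Flt1 and Flt4 every subclone library stayed above every polyclonal one.

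**Figure D5:**
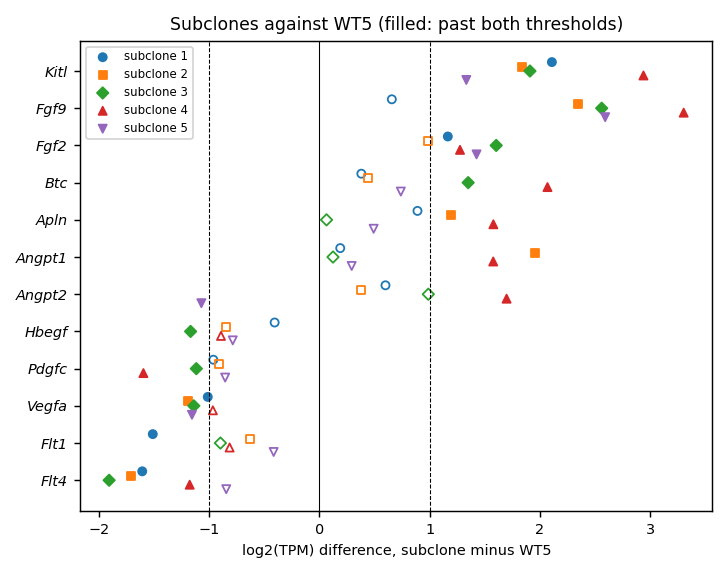
Difference in mean log2(TPM), subclone minus WT5, for the 12 genes past 2-fold in at least 1 subclone, with 1 symbol per subclone (n = 4 libraries a group). Filled symbols passed adjusted p below 0.01 (limma) and 2-fold, open ones did not, and dashed lines mark 2-fold. Kitl is filled in all 5 subclones, Fgf9 in subclones 2 to 5, and Flt4 is filled to the left in subclones 1 to 4.

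Further genes of these pathways were counted from lists chosen by function. Between WT5 and polyclonal WT, 7 of the 65 tested, or 10.8%, were called by the z-score rule, beside 5.43% of all genes: Fgf21, Nrp2, Apela, Igfbp7 and Sdc3 higher, Fgfbp1 and Grb14 lower. Nrp2, a neuropilin that is a co-receptor for VEGF-C, was at 1.71 ± 0.253 TPM in the polyclonal libraries and 23.3 ± 0.536 TPM in WT5 (SD, n = 4), and Apela, which encodes a second ligand of the apelin receptor, at 0.66 ± 0.321 and 8.53 ± 0.593 TPM (SD, n = 4). Fgfbp1, a carrier that releases FGFs from the matrix, was at 32.8 ± 3.94 and 3.59 ± 1.06 TPM (SD, n = 4), and Igfbp7, an IGF-binding protein, at 30.1 ± 3.09 and 441 ± 17.7 TPM (SD, n = 4). By list and 2-fold, 5 of 5 other FGF genes tested, 0 of 7 EGF family genes, 5 of 6 VEGF and angiopoietin genes, 5 of 11 IGF and HGF genes, 7 of 16 heparan sulfate genes and 7 of 20 receptor adaptors differed, beside 25.3% of all genes.

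Among the 5 subclones 7 of the 68 genes of these lists that were tested, or 10.3%, were called, beside 5.4% of all genes: Fgfbp1, Pgf, Vegfd, Igfbp4, Gpc2, Grb14 and Plcg2. Igfbp4, another IGF-binding protein, was at 3.51 to 4.30 TPM in subclone 3 and at 0.84 TPM or less in all other libraries of the series. Igfbp4 and Grb14, both in subclone 3, were also the only genes of the lists past the z-score rule against WT5 in any subclone. They were 2 of 68, beside 0.613% of all genes called in at least 1 subclone. They were higher by 13.3-fold and 18.4-fold (limma adjusted p = 0.00014 and 0.000981), Grb14 at no more than 1.00 TPM. Pgf, the placental growth factor that binds FLT1, and Vegfd, a ligand of FLT4, were called higher in subclone 4, the subclone with the highest Kitl, Btc and Angpt2. Pgf was at 0.77 to 1.18 TPM there and at 0.69 TPM or less in the other 4 subclones, and Vegfd at 0.64 to 0.91 TPM and 0.58 TPM or less. Grb14 and Vegfd were under 1 TPM in every group mean and are named because the counts are small.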

How the data were processed

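RNA sequencing libraries (28) were grouped by their labels. The authors aligned reads to GRCm38 with STAR 2.7.3a and Ensembl annotation, quantified genes with RSEM 1.3.1 and deposited TPM, given to 2 decimals. A single table holds 8 libraries of polyclonal WT and WT5 and another the 20 subclone libraries; they were joined by gene identifier. The depth is unknown, so no counting error can be given. Replicates are biological in the methods and technical in a legend, so p-values measure only the spread between these samples, which may be technical.

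Log2(TPM) values were turned into z-scores per library, over genes above 0 in all 8 libraries, or in all 24 of WT5 and the subclones (13860 genes), and compared with limma 3.58.1 in R 4.3.3 (two-sided, Benjamini-Hochberg over all genes tested). Thresholds followed the study's methods; 2-fold was a second rule. Subclones were compared on log2(TPM) without z-scores. Fold changes are of geometric means. Fits were tested on simulated data. All 45 members are in the counts, and called members are given by library, with up to 3 called genes of at least 1 TPM per pathway list. Fgf18 and Fgf7 are not described singly. Fgf18 was tested in every comparison and passed no rule given above. Fgf7, listed at 0 in some libraries, was tested only with a pseudocount of 0.1. It was called neither between WT5 and polyclonal WT nor among the subclones. The members, lists and tests were chosen with earlier results of these data known. Alternatives were the unequal-variance test of the methods, pseudocounts of 0.1 and 1, filters, scalings, thresholds, a replicate block and each replicate left out. Coordinates are from GENCODE M21 and promoters from RefSeq on GRCm38.p6; Pdgfrb, Angpt1, Angpt2, Aplnr, Erbb3, Fgfr1, Fgf1, Ereg, Pdgfb, Hbegf and Nrg1 have no entry. Python 3.11.15, pandas 2.3.3 and matplotlib 3.10.9 were used.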

Additional observations from a re-analysis of the deposited data

Results flagged for a closer look

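In 154 groups of 4 libraries (22 genes in 7 groups), the library farthest from the others was tested with Dixon's ratio, by which chance flags about 1 group in 20, and 9 stood apart. Egf was at 0.42 TPM in polyclonal WT replicate 3, with the other 3 at 0.23 TPM. Tgfa was at 44.7 TPM in WT5 replicate 3, above the 34.0 to 34.8 TPM of the others. Nrg1 was low in subclone 1 replicate 3 at 3.75 TPM (others 4.36 to 4.42), in subclone 4 replicate 1 at 5.22 TPM (others 6.57 to 6.81) and in subclone 5 replicate 1 at 2.92 TPM (others 4.27 to 4.50). Pdgfd was high in subclone 4 replicate 3 at 15.8 TPM, beside 14.8 to 14.9 TPM. Vegfa was high in subclone 4 replicate 4 at 39.1 TPM, beside 33.3 to 33.9 TPM. Angpt1 was at 0.05 TPM in WT5 replicate 2 and 0.04 TPM in the other 3, a gap of a single last decimal. Apln was low in subclone 1 replicate 4 at 0.24 TPM, beside 0.29 to 0.30 TPM.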

How the results depend on the processing

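Counts below are of the 45 growth factor genes and of the pathway lists, in the order WT5 against polyclonal WT, subclones against WT5, among subclones, and 1 subclone against the other 4. The main counts were 7, 1, 8 and 5 for the members, with 20 and 12 past 2-fold in the first pair of comparisons, and 7, 2, 7 and 8 for the lists. No direction reversed among the results recomputed. For single members, 717 values with 1 library left out kept their call and 7 lost it, and under the other alternatives 560 kept it, 54 lost it and 182 gained it. With a pseudocount of 1 the members' counts were 1, 1 and 1 (all but the subclones against WT5) and 4 past 2-fold in subclones, and the lists' were 3, 0, 4 and 2. Among genes with a mean of at least 1 TPM, the members' counts were 1 and 1 among subclones and for 1 subclone, with 5 past 2-fold against WT5, and the lists' 0, 3 and 3 in the last 3 comparisons. The numbers tested and the shares of all genes with this filter are not given here. Without a filter and with a pseudocount of 0.1, members counted 2 of 39 tested (5.13%) and 0 of 40 tested. The lists counted 3, 1 and 12 in the first 3 comparisons. A pseudocount of 0.1 gave 1 list gene in subclones against WT5, and the unequal-variance test 0 there and 5 members among subclones.

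Thresholds and scaling moved counts as their construction implies. Without z-scores where the rule had them, or with them where it had none, the members counted 20, 12, 0 and 0 and the lists 30, 14, 2 and 1. Centred on the library median, the first pair of counts was 19 and 13 for members and 27 and 12 for lists. With log2 differences above 1 in z-scored data, it was 20 and 12 for members and 29 and 14 for lists, and with no minimum difference the members counted 23, 25, 14 and 15 and the lists 47, 50, 17 and 18. Rescaling without predicted genes gave 2 members against WT5.

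Leaving out 1 library at a time, the members counted 7 to 7, 0 to 1, 7 to 9 and 5 to 6, with 19 to 21 and 12 to 13 past 2-fold, and the lists 5 to 7, 2 to 3, 6 to 8 and 7 to 8. The 0 arose without WT5 replicate 2 and without subclone 4 replicate 1. The replicate numbers do not pair the libraries: between polyclonal WT and WT5, deviations of same-numbered libraries correlated at -0.035 to -0.0054, and in no pair of groups were all 4 above 0.1. With a replicate block 19 members were past 2-fold in WT5 against polyclonal WT and 11 in the subclones against WT5.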
